A study of Homo sapiens with 2 samples.

Results

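The collagens, laminins and fibronectin that Seg-1 cells express were compared after siRNA against FGF-AS, the antisense RNA of the fibroblast growth factor 2 locus. Genes were taken by name: every probe set annotated to 1 symbol of the form COL-number-A-number, to a LAMA, LAMB or LAMC gene, or to FN1, NID1, NID2, SPARC, THBS1 or FBN1. This gave 59 of the 19775 named genes on the array, with 158 probe sets. A probe set is a group of short oligonucleotides designed to report the transcripts of a gene, and its signal is an intensity on a linear scale.

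One array carried RNA of a Seg-1 culture that had received FGF-AS siRNA, and 1 array carried RNA of a Seg-1 culture that had received negative control siRNA, which matches no known gene. Both cultures were harvested 72 hours after reverse transfection with siRNA at between 25 and 200 nM, and no source used here tells which of these doses either culture received. Seg-1, once regarded as an esophageal line, is given in the labels as a lung adenocarcinoma line, identical to H460. Each group therefore holds 1 array of 1 line, differences could not be set against variation between cultures, and p-values are left out.

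Collagens are trimers that form fibrils, networks or membrane-bound rods. Laminins are trimers of an alpha, a beta and a gamma chain, and together with collagen IV networks and the linker protein nidogen they build the basement membrane under an epithelium. Fibronectin is a dimeric glycoprotein that cells assemble into fibrils through integrins.

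A gene was represented by its brightest probe set and counted as measured when the mean of its 2 signals reached 23.85, the median over all probe sets. By this rule 33 of the 59 genes were measured, 31 of them with both signals at or above the minimum, and the other 2 (COL13A1 and COL23A1) reached it through the control array alone. The log2 ratio is that of FGF-AS siRNA over control siRNA after adding 6.1 to each signal, which understates the change of dim genes. The only error available is how far the probe sets of a gene disagree. Pooled within genes, log2 ratios of measured probe sets had an SD of 0.49 over all genes, or 0.36 where the mean signal was at or above 145.15 (the 75th percentile) and 0.58 below it. It covers no variation between cultures.

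The arrays had median signals of 23.1 with FGF-AS siRNA and 25.5 with control siRNA, and their log2 signals correlated across probe sets with Pearson's r of 0.96. NUDT6, the gene of the targeted antisense RNA, read 27.7% of control on its brighter probe set and 29.1% on the other. Of 9 epithelial markers 6 were measured, and only the keratins among them were bright, with KRT18 at 9327.2 with FGF-AS siRNA and 10152.5 with control siRNA. EPCAM (43.8 against 34) and MUC1 (37.5 against 31.8) were dim, and CDH1, CLDN7 and ESRP1 were not measured. Of 6 lung epithelium markers 3 were measured, all dim, with a summed signal of 201.1 with FGF-AS siRNA and 157.4 with control siRNA. SFTPB read 98 against 110.8, NAPSA 44 against 31.9 and SFTPC 59.1 against 14.7, the last with a log2 ratio of 1.65 but above the signal minimum on 1 array alone, while the lineage factor NKX2-1 was not measured. Of 9 fibroblast markers only DCN and THY1 were measured, both dim, their summed signal was 60.3 with FGF-AS siRNA and 62.6 with control siRNA, and the defining genes PDGFRA, PDGFRB and LUM were not measured. Of 6 endothelial markers PECAM1 was measured (55.7 against 43.2), and of 4 leukocyte markers CD3E (52.7 against 33.5) and CD14 (16.8 against 38.3). PECAM1 and CD3E were thus about as bright as EPCAM and NAPSA, and signals of this size do not by themselves show expression.

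The measured matrix genes did not move together. Of the 33, 20 had a log2 ratio above 0 (60.6%, against 48.1% of all 12352 measured genes) and 13 below. Their median was 0.14, against a median of -0.02 over all measured genes. LAMA5, the laminin alpha5 chain, was the single gene at least 2-fold higher (3.03% of the 33, against 2.05% of all measured genes), and COL3A1, the type III collagen chain, the single gene at least 2-fold lower (3.03%, against 2.72%). At 1.5-fold, 6 were higher (18.2%, against 7.96% of all) and 4 lower (12.1%, against 9.52%), and these differences in share were not tested. COL13A1 and COL23A1, counted as lower, reached the minimum through the control array alone, so their direction follows from it. In RNA of a whole culture, fewer cells that express a gene and less of its RNA per cell cannot be told apart. With so few genes, 1 gene is 3.03% of the list, and shares near the background say nothing particular about matrix genes. The split of all genes past 2-fold depended on the scaling, with 43.0% of them higher as deposited, 65.8% after median scaling and 63.3% after quantile normalization. Median scaling moved the median of all measured genes to 0.12, so a ratio within about that distance of 0 has no settled sign.

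**Figure D1:**
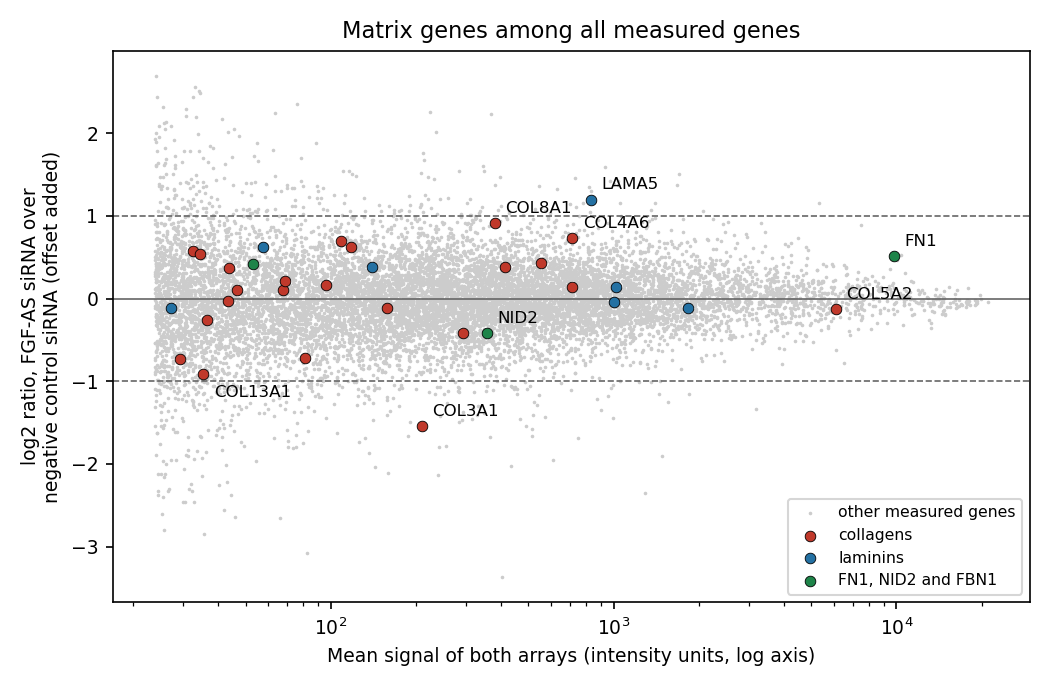
The log2 ratio of FGF-AS siRNA over negative control siRNA (vertical axis) is plotted against the mean signal of both arrays (horizontal log axis, intensity units) for the brightest probe set of each of the 12352 measured genes, with dashed lines at 2-fold. Among the coloured matrix genes LAMA5 lies above the upper line and COL3A1 below the lower one, while FN1 and COL5A2 lie at the bright end.

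Collagen IV forms the network of the basement membrane, and its 6 chains are encoded in 3 pairs of genes that lie head to head. In the RefSeq promoter windows (GRCh38.p14, 250 bases before to 50 after each start site), the start sites of COL4A1 and COL4A2 on chromosome 13 lie 127 bases apart, those of COL4A4 and COL4A3 on chromosome 2 lie 419 apart, and those of COL4A6 and COL4A5 on chromosome X lie 380 apart. A second COL4A6 start site lies 1416 bases from that of COL4A5. The windows of each pair overlap by 226, 82 and 121 bases in that order, so 1 window of each pair is shown, because the region it covers lies beside or between the start sites of both genes. The COL4A2 window holds both start sites of its pair, while the COL4A3 and COL4A5 windows hold their own start site alone. Capitals mark matches, on either strand, to the letters GGGCGG (a GC box), CCAAT or TATAAA (the TATA box).
COL4A2, plus strand, chr13:110307034-110307333: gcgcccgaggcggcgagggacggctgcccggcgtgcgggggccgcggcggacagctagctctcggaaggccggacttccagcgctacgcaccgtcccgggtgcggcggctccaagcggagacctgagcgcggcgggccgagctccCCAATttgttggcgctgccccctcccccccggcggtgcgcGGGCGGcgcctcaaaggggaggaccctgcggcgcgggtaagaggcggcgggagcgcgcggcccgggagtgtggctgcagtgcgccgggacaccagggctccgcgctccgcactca
COL4A3, plus strand, chr2:227164374-227164673: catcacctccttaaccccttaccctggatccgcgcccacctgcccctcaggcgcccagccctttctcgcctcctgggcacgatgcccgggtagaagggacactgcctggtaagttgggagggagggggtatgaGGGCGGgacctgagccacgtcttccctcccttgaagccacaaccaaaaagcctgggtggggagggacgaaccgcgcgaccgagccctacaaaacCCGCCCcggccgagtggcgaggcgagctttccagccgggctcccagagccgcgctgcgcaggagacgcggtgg
COL4A5, plus strand, chrX:108439588-108439887: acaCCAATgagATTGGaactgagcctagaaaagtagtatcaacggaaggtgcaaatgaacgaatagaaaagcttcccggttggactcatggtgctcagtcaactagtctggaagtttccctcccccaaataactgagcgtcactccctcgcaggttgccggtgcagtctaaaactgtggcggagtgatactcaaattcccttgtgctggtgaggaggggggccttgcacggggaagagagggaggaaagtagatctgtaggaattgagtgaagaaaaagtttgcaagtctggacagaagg

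The COL4A2 window holds 1 GC box and 1 CCAAT, that of COL4A3 holds 2 GC boxes, and that of COL4A5 holds 2 CCAAT letters, 1 on each strand. None of them holds TATAAA. Of all 35116 windows in the table, 45.0% hold a GC box, 34.6% CCAAT and 11.5% TATAAA, and such a match is a description of letters, not a site. The G and C content was 77.7% for COL4A2, 67.7% for COL4A3 and 49.3% for COL4A5.

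All 6 collagen IV genes were measured, 5 of them above 0 on the brightest probe set, with a median log2 ratio of 0.29. COL4A1, whose chain forms the widespread collagen IV trimer with that of COL4A2, read 249.7 with FGF-AS siRNA and 335.3 with control siRNA on its brighter probe set and 109.7 against 155.1 on the other, log2 ratios of -0.42 and -0.48. COL4A2 read 466.6 against 357.8 on its brighter probe set (0.38) and 174.9 against 189.3 on the other (-0.11). Both probe sets of COL4A1 were thus lower by about 1 probe set SD, while those of its partner disagreed in sign, and neither gene passed 1.5-fold.

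COL4A6, a chain of the collagen IV found in specialised basement membranes, read 895 with FGF-AS siRNA and 536.2 with control siRNA on its brightest probe set. A second probe set read 340.3 against 204.8, and the third, dimmer one 72.1 against 76.8. The log2 ratios were 0.73, 0.72 and -0.08, so the brighter pair stood more than 1.5-fold above control and the dim one differed by less than the SD. COL4A5, its head-to-head partner and the gene mutated in X-linked Alport syndrome, read 635.4 against 469.7 (0.43) on the brighter probe set and 25.3 against 49.1 (-0.81) on a dim one. The mean over its 2 probe sets was below 0, against the brighter one.

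COL4A3 and COL4A4, which encode chains of the kidney and lung basement membrane, were dim. COL4A3 read 74.6 with FGF-AS siRNA and 63.7 with control siRNA on its brightest probe set (0.21), and its 2 other measured probe sets gave -0.92 and -0.08. COL4A4 read 102.1 against 90.1 (0.17). Neither differed from control by more than the SD of dim probe sets on its brightest one.

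Laminin genes were measured for 7 of the 10 chains annotated here, 4 above 0 and 3 below, with a median of 0.14. LAMA5 encodes the alpha chain of the main laminin of adult epithelial basement membranes, which joins it to the beta1 or beta2 and the gamma1 chain. Its single-symbol probe set read 1164.4 with FGF-AS siRNA and 504.9 with control siRNA, a log2 ratio of 1.20 or 2.29-fold. This was the 32nd highest of the 7719 genes at the stricter minimum, and it lay between 1.17 and 1.34 under every alternative that kept the probe set. LAMA5 has no second single-symbol probe set to set against it, so only other offsets and scalings could move that ratio. A dim probe set annotated jointly to LAMA5 and LAMA5-AS1 read 52.8 with FGF-AS siRNA and 94.2 with control siRNA, the opposite direction (-0.77). Its promoter window, shown because LAMA5 is the single matrix gene past 2-fold upward, holds 5 GC boxes (in capitals, either strand), no CCAAT and no TATAAA, and is 82.7% G and C.
LAMA5, minus strand, GRCh38.p14, chr20:62367263-62367562: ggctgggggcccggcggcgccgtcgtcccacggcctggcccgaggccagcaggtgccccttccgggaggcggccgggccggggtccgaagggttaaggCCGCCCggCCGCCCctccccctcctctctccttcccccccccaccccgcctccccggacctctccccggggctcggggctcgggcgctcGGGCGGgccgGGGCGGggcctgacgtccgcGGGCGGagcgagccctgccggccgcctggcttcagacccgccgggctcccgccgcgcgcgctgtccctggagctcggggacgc

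The chains that assemble with LAMA5 did not show a like difference. LAMB1, the beta1 chain, read 1761.1 with FGF-AS siRNA and 1914.3 with control siRNA on one probe set and 1245.2 against 1402.9 on the other, log2 ratios of -0.12 and -0.17. LAMC1, the gamma1 chain shared by most laminins, read 989.9 against 1020.2 and 674 against 801.3, with ratios of -0.04 and -0.25. All 4 ratios were within the SD of 0.36, and that of the brightest probe set turned above 0 under median scaling for both genes, and for LAMC1 also under trimmed mean scaling. LAMB2, the beta2 chain, read 158.9 with FGF-AS siRNA and 121 with control siRNA (0.38) on its only probe set.

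LAMA1, the alpha1 chain of the embryonic laminin, read 1072.7 with FGF-AS siRNA and 974.9 with control siRNA (0.14), and 27.6 on both arrays on its dim probe set. LAMC3, a gamma chain of restricted expression, was dim at 71.1 against 43.8 (0.63), and LAMA2, the alpha chain of muscle laminin, read 26 against 28.7 (-0.12, above 0 under median scaling and quantile normalization). LAMA4, LAMB3 and LAMB4 were not measured. LAMB3, a chain of the laminin that anchors skin epithelium, read 4.4 with FGF-AS siRNA and 4.1 with control siRNA.

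**Figure D2:**
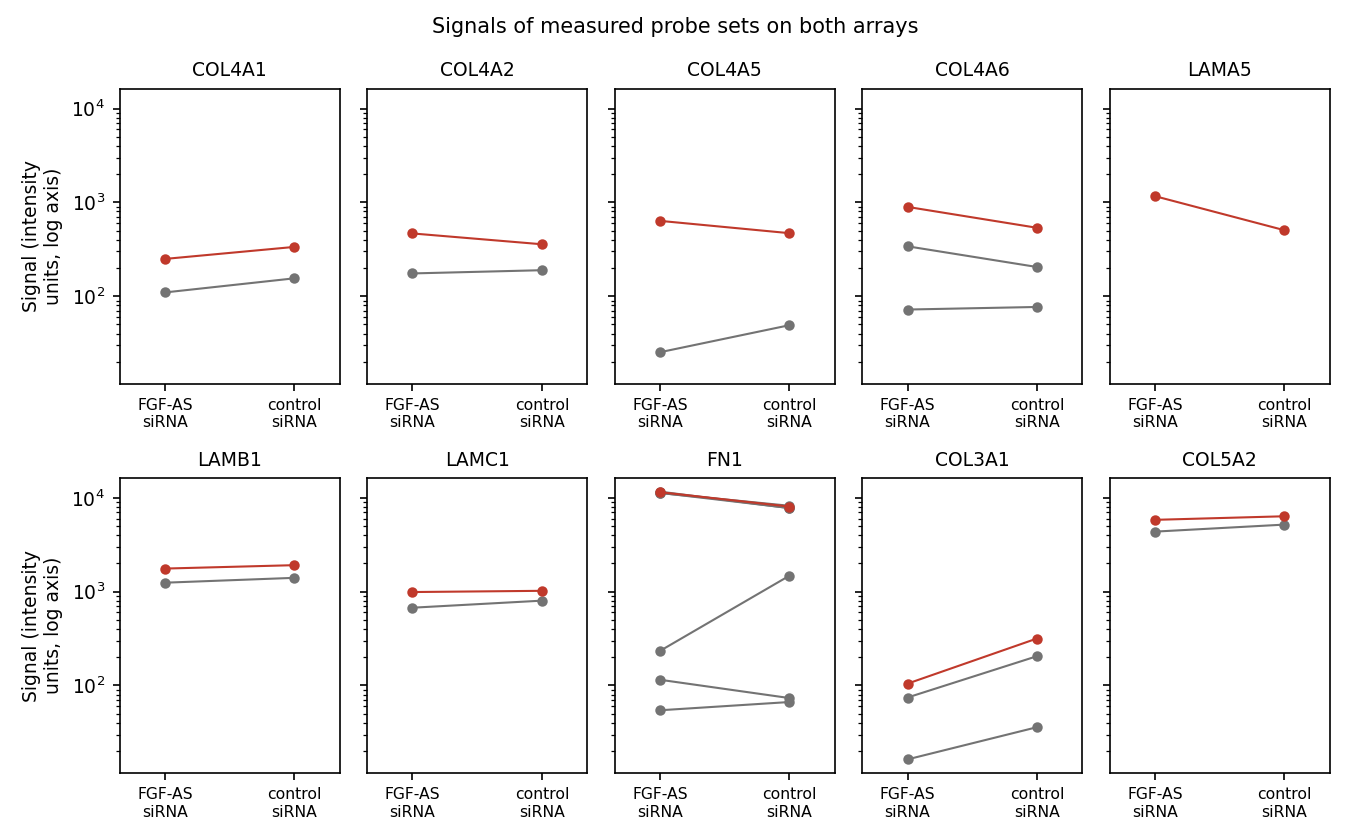
Signals on the FGF-AS siRNA array (left) and the negative control siRNA array (right) are joined by a line for each measured probe set of 10 genes, on a log axis in intensity units, with the brightest probe set in red. LAMA5 is higher with FGF-AS siRNA while LAMB1 and LAMC1 are nearly level, all 3 lines of COL3A1 are lower with FGF-AS siRNA, and 1 FN1 probe set (233.6 against 1478.7) runs against the 4 brightest.

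FN1 encodes fibronectin, and its probe sets gave opposite answers. The 4 brightest read 11476.7, 11235.7, 11633.5 and 11294.8 with FGF-AS siRNA, against 8059, 8223, 7759.2 and 7787.3 with control siRNA. These carry the suffixes _s_at or _x_at, which mark probes that may bind more than 1 transcript. Their log2 ratios ran from 0.45 to 0.58, with a mean of 0.52 ± 0.06 (SD over 4 probe sets, which can share target sequence and are not replicates), or 1.43-fold. The ratio of the brightest FN1 probe set was the 584th highest of the 7719 genes at the stricter minimum. Among the 342 genes at least 50% as bright as FN1, 4 had a ratio as high, FN1 included.

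The fifth FN1 probe set in order of brightness, also with the suffix _s_at, read 233.6 with FGF-AS siRNA and 1478.7 with control siRNA. This is 15.8% of control, a log2 ratio of -2.63. That ratio lies far outside the spread of the other FN1 probe sets and is many times the SD of 0.36. The sixth, listed in the platform annotation with the same source transcript as the fifth, has no such suffix. It read 115 against 73.4 (0.61), and the dimmest read 54.4 against 66.6 (-0.27). In all, 5 of the 7 FN1 probe sets were above 0 and 2 below. What part of the FN1 transcripts each probe set reads was not analysed here, and the mean over all 7 came to -0.03.

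Of the other glycoproteins, NID2, which encodes nidogen-2, a linker of laminin and collagen IV, read 303.6 with FGF-AS siRNA and 408 with control siRNA on its only probe set (-0.42). FBN1, the microfibril protein fibrillin-1, was dim at 61.5 against 44.7 (0.41). NID1, SPARC and THBS1 were not measured on any of their 3, 2 and 7 probe sets. The 2 probe sets of SPARC, a collagen-binding protein, read at most 2.7 with FGF-AS siRNA and 3 with control siRNA, so no statement on a difference can be made for it, and THBS1, thrombospondin-1, read at most 23.8 and 21.2.

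Fibrillar collagens, which form the striated fibrils of connective tissue, were measured for 5 of 11 genes. COL3A1, the sole chain of type III collagen, read 104.6 with FGF-AS siRNA and 316.4 with control siRNA on its brightest probe set, 33.1% of control. Its second probe set read 74.4 against 205, and the third 16.3 against 35.9. The log2 ratios were -1.54, -1.39 and -0.91, so all 3 measured probe sets were lower, the first by 2.91-fold. The third reached the signal minimum through the control array alone, so its direction follows from the minimum and adds nothing to the other pair. The brightest ranked 16th lowest of the 7719 genes at the stricter minimum. All 3 carry the suffix _s_at or _x_at, and the 2 COL3A1 probe sets without it were under the minimum, at 15.2 against 10 and 2.6 against 1.8. The call on COL3A1 thus ends, as does that on LAMA5, once probe sets with these suffixes are left out. The only measured fibroblast markers, both dim, were DCN at 31 against 42.5 (-0.39) and THY1 at 29.3 against 20.1 (0.43). Each array holds RNA of a culture of 1 cell line, and such dim signals do not show that fibroblasts were present. What lies behind the COL3A1 difference was not tested.

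COL5A2, a chain of the type V collagen that takes part in fibril assembly, was bright and nearly level. It read 5823.1 with FGF-AS siRNA and 6356.6 with control siRNA on one probe set and 4361.3 against 5180.2 on the other (-0.13 and -0.25). The ratio of the brighter one turned above 0 under median scaling. Its partner chains COL5A1 and COL5A3 were not measured on any of their 3 and 2 probe sets. COL27A1, a cartilage-type fibrillar collagen, was above control on all 3 measured probe sets, at 144.2 against 91.2, 86.2 against 84.2 and 78.4 against 65.5, with log2 ratios of 0.63, 0.03 and 0.24. The brightest passed 1.5-fold, and the 2 others lay within the SD of 0.58 of dim probe sets.

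COL1A1, a chain of type I collagen, was measured on 1 of 5 probe sets, which read 151.6 with FGF-AS siRNA and 164.3 with control siRNA (-0.11, turning above 0 under median scaling and quantile normalization). That probe set carries the suffix _x_at. The other 4 COL1A1 probe sets, and all 3 of its partner COL1A2, were under the minimum. COL11A2, the remaining measured fibrillar gene, gave 0.11 on its brightest probe set (70.5 against 65) and -1.05 on the other (17.7 against 43.3).

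Among collagens of other classes, COL8A1, a short-chain network collagen, read 498 with FGF-AS siRNA and 261.4 with control siRNA (0.91) on its brightest probe set and 38.9 against 47.2 (-0.24) on a dim one. It passed 2-fold after median scaling, at 1.05, and came to 0.34 as the mean over both. COL8A2, its partner, was dim at 42.1 against 27.1 (0.54).

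COL12A1, a collagen that decorates fibrils, read 750.3 with FGF-AS siRNA and 678.9 with control siRNA on its brightest probe set (0.14). Its 3 other measured probe sets were all lower, at 212.1 against 423.2, 110.5 against 210.5 and 69.4 against 89, with log2 ratios of -0.98, -0.89 and -0.33. The brightest probe set alone therefore shows COL12A1 as level, and the mean over all 4 was -0.51.

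COL14A1, of the same class, gave 0.70 on its brightest probe set (136.1 with FGF-AS siRNA against 81.6 with control siRNA) and 0.79 on a dim one (34.5 against 17.4). Its 2 other probe sets, also dim, gave -2.70 (2.7 against 51) and -1.64 (9.5 against 42.4), so no direction can be given for it. COL6A1, the beaded-filament collagen VI alpha1 chain, likewise gave 0.37 (50.1 against 37.3) and -1.09 (24.3 against 58.6), with its 6 other probe sets and every other collagen VI gene under the minimum.

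Both measured transmembrane collagens were lower, though each was under the minimum with FGF-AS siRNA. COL13A1, found at cell junctions, read 22.8 with FGF-AS siRNA and 48.2 with control siRNA (-0.91), and COL23A1 read 20.6 against 38.1 (-0.73). COL26A1 was also lower, at 59.9 against 102.6 (-0.72). COL18A1, the source of endostatin, was dim and above control on both of its probe sets, at 40.3 against 25.1 (0.57) and 32.9 against 26.1 (0.28). COL7A1, which forms the anchoring fibrils of skin, COL22A1 and COL9A2 were dim with ratios of -0.03, 0.10 and -0.26, and that of COL7A1 turned above 0 under all 3 other scalings.

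**Figure D3:**
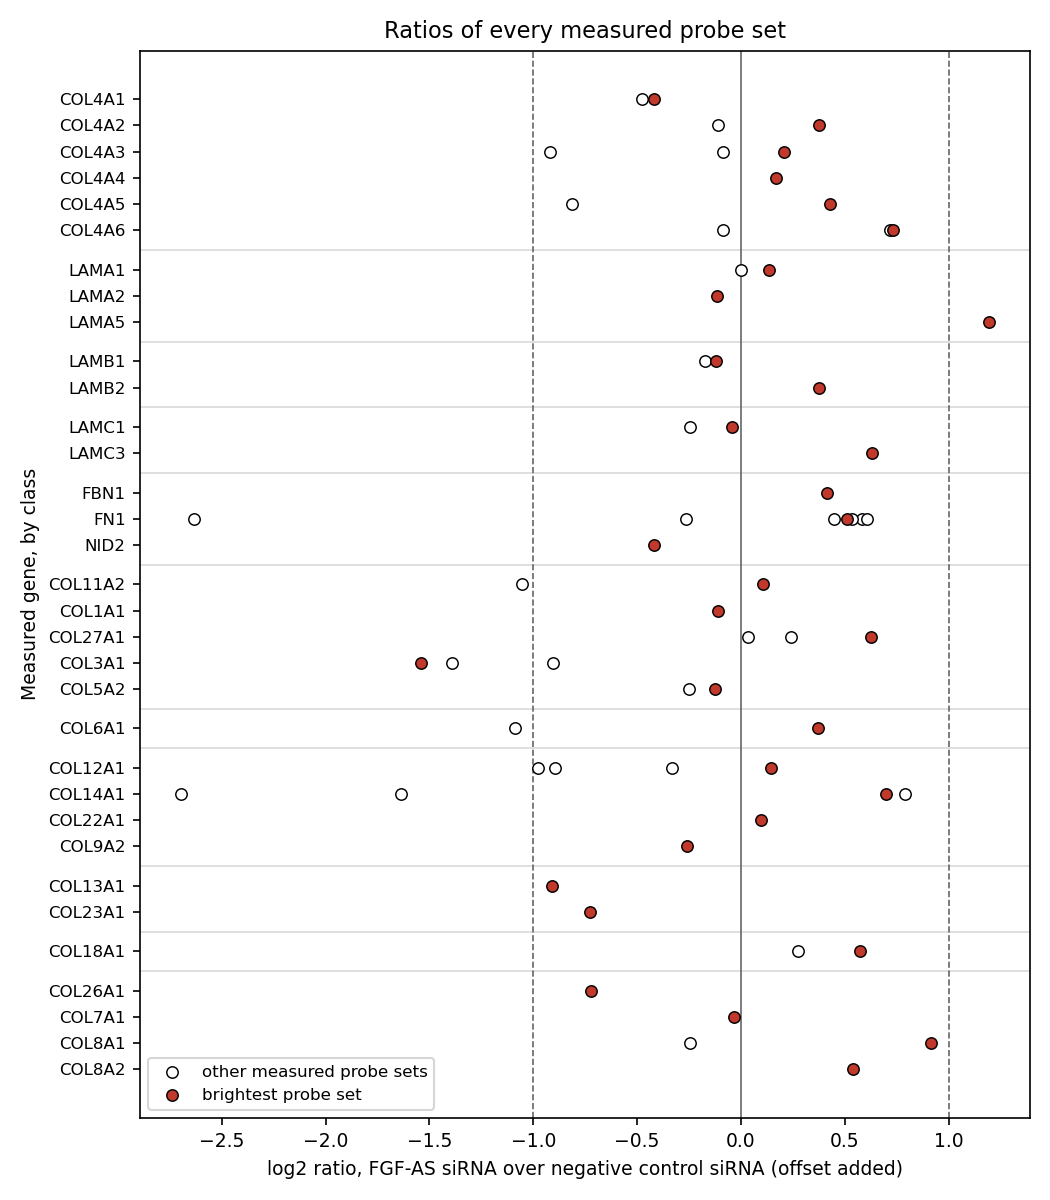
Each row is 1 of the 33 measured genes, grouped by class, and the horizontal axis gives the log2 ratio of FGF-AS siRNA over negative control siRNA for its brightest probe set (red) and its other measured probe sets (open), with dashed lines at 2-fold. All COL3A1 points lie left of 0, while the points of FN1, COL14A1, COL12A1 and COL6A1 lie on both sides.

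Probe sets of a gene often disagreed in sign, for these genes and over the whole array. Of the 18 matrix genes with several measured probe sets, 7 had all of them on the same side of 0 (38.9%), against 49.1% of the 6155 such genes overall. Those 7 were COL3A1, COL4A1, COL5A2, LAMB1 and LAMC1, all lower, and COL18A1 and COL27A1, both higher. The brightest probe sets of COL5A2, LAMB1 and LAMC1 turned above 0 under median scaling, so their direction is not settled. Of the 64 measured probe sets, 8 reached the minimum through 1 array alone, so that their direction follows from it: 3 of COL14A1 and 1 each of COL3A1, COL4A3, COL11A2, COL13A1 and COL23A1. The pooled SD within genes was 0.87 among the 18 genes, and 0.77 without FN1, against 0.49 over all genes. COL14A1, with ratios from -2.70 to 0.79, weighs heavily in the value without FN1. No SD was computed without both genes, so the excess is not shown to be a trait across the family. At or above 145.15 the SD was 0.90 (7 genes), against 0.36 over all genes. Below it the SD was 1.01 (8 genes), against 0.58. FN1 enters both of these values and COL14A1 the second. With 18 genes, a share of 38.9% is near the 49.1% of all such genes, and the number of probe sets per gene was not matched. LAMA1, with ratios of 0.14 and 0, was counted as not on the same side. This is a description of 2 arrays, and the differences in share and in SD were not tested.

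Genes that make, bind and degrade this matrix were taken from lists drawn up by function. Their counts above 0 stand beside a share of 48.1% over all measured genes. Of 27 measured collagen-processing enzymes and chaperones, 15 were above 0 with a median of 0.05, and 1 passed 2-fold, ADAMTS14, a procollagen peptidase, which was lower but dim (1.9 with FGF-AS siRNA against 49.5 with control siRNA). That is 3.70% of the list, against 2.72% of all measured genes. P4HB, the beta subunit of prolyl hydroxylase, read 8119.7 against 7853.9 (0.05), and P4HA1, a catalytic subunit, read 1158.8 against 1312 (-0.18). PLOD3, a lysyl hydroxylase, read 1859.5 against 1265.9 (0.55), and P3H4, of the prolyl 3-hydroxylase family, read 396 against 258.2 (0.61).

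Of 19 measured integrins and other matrix receptors, 13 were above 0 with a median of 0.13. The single one past 2-fold was BCAM, a receptor of laminin alpha5, which was dim at 49.8 with FGF-AS siRNA and 15.6 with control siRNA (1.37) and read 2.4 against 2.8 on its other probe set. That is 5.26% of the list, against 2.05% of all measured genes. ITGB1, the beta subunit of most matrix-binding integrins, was level at 5389.6 against 5249.9 (0.04).

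Of 14 measured matrix metalloproteinases and inhibitors, 9 were above 0 with a median of 0.25. TIMP2, an inhibitor, was past 2-fold at 288.6 with FGF-AS siRNA and 128 with control siRNA (1.14), and its other probe sets gave 0.34 and 0.97. As the single gene past 2-fold it was 7.14% of the list, against 2.05% of all measured genes. Of 24 other matrix and matricellular genes, 12 were above 0 with a median of 0.05, and 4 were at least 2-fold lower (16.7%, against 2.72% of all measured genes). These were CCN2 (-1.44) and CCN1 (-1.21), secreted regulators of adhesion, and the dim HMCN1, hemicentin-1 (-1.24), and THBS3, thrombospondin-3 (-1.06). Across the 4 lists 2 of 84 measured genes passed 2-fold upward (2.38%, against 2.05% of all) and 5 downward (5.95%, against 2.72%). Of these 7, BCAM, ADAMTS14 and HMCN1 reached the signal minimum only through the array on which they were higher, so their direction follows from the minimum. None of these shares was tested.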

How the data were processed

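RNA from 2 Seg-1 cultures was hybridised to Affymetrix U133 Plus arrays, 1 per group. The authors deposited 1 linear intensity per probe set and array. GCOS and MAS5 are named in the submitters' processing notes without version or scaling target, so how the arrays were scaled to each other is unknown. Depth does not apply, and the number of arrays limits the precision. Detection calls were not used here.

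Of 54675 probe sets, 62 were controls and 41091 had 1 symbol. Symbols were checked by gene identifier against RefSeq (GRCh38.p14), which changed none, and 45 of the 59 genes matched a RefSeq promoter window. The offset of 6.1 was the 25th percentile of all signals, the minimum of 23.85 the median of the probe set means, and the size rule 2-fold. The rule for named genes was every measured gene of the family, and of each other list those past 2-fold or the one furthest from 0. P4HB, P4HA1, PLOD3, P3H4 and ITGB1 were added once values were known. The members and lists were chosen with earlier results of these data known. Ratios were computed in Python 3.11.15 with pandas 2.3.3 and tested on simulated data. Alternatives were other offsets, minimums, scalings and probe set summaries.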

Additional observations from a re-analysis of the deposited data

How the results depend on the processing

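No paired analysis was possible because each group holds 1 array, and leaving out a replicate was not possible either. LAMA5 and COL3A1 were past 2-fold under every alternative that kept their brightest probe sets. A changed minimum leaves the ratio of a kept probe set as it was, and LAMA5 has no second one to average. Among these alternatives, only the offsets and scalings could thus have changed the LAMA5 call. The counts of 2-fold higher and lower genes became 4 and 4 with no minimum (5.43% and 6.42% of all genes). After median scaling 2 were higher (COL8A1 added), against 3.20% of all measured genes. Once probe sets with the suffixes _s_at and _x_at were dropped, 0 were higher and 3 lower (COL11A2, COL14A1 and COL6A1). Over all measured genes the shares were then 2.16% and 3.30%. Dropping them left 24 genes and neither LAMA5 nor any measured COL3A1 probe set. The COL11A2 and COL14A1 calls rest on readings of 17.7 against 43.3 and 9.5 against 42.4. Both reached the minimum through the control array alone, so their direction follows from it. The median log2 ratio became 0.28 after median scaling and 0.26 after quantile normalization, which moved the median of all genes too (0.12 and 0.06). It turned below 0 with the mean over probe sets, at -0.12, and without the suffixed probe sets, at -0.038. The medians over all measured genes were then -0.06 and -0.02. Without the suffixed probe sets fewer entered, and otherwise the cause was not tested. Of the 33 genes, 20 kept the sign of their ratio under all alternatives run and 13 did not. This count is no measure of stability. For the 15 genes with 1 measured probe set, the mean over probe sets could not change the sign, and some genes dropped out of alternatives. The 20 include COL13A1 and COL23A1, whose direction follows from the minimum. They also include COL4A2, COL4A6 and COL8A1, whose measured probe sets disagree in sign. A minimum reached on both arrays was chosen after seeing the data and gave a median of 0.17 over 31 genes. Without detection calls, a dim signal cannot be told from background.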

Other observations

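Among the 26 matrix genes under the signal minimum, 58 probe sets read between 0.6 and 31.4. With no minimum, COL15A1, LAMA4 and NID1 would pass 2-fold upward and COL20A1, COL5A1 and COL5A3 downward. Their brightest probe sets read 16 with FGF-AS siRNA and 4.5 with control siRNA for COL15A1, 27.5 and 5.1 for LAMA4, and 13.8 and 2.9 for NID1. For COL20A1 they read 5 and 23.7, for COL5A1 2.4 and 13.4, and for COL5A3 5.8 and 27. Without the minimum, 5.43% of all genes passed 2-fold upward and 6.42% downward, against 2.05% and 2.72% with it.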
